A study of Homo sapiens with 4 samples.

Results

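The genes described here encode subunits of ATP-dependent chromatin remodelling complexes and bromodomain proteins, the functional relatives of BAZ2B. Of 59 listed genes, 35 have a named probe set on the arrays: 32 through the platform annotation, out of 14884 genes that this annotation names, and 3 (SMARCD3, BRPF1 and BRPF3) only through the study's own supplementary list of probe sets. The members were listed by complex and domain, not by their values on these arrays, but with earlier results of these data known. Transcripts were measured on 4 Affymetrix Human Gene 2.0 ST arrays, 2 of Baz2B-KO and 2 of the parental Hap1 control. Hap1 is an adherent, near-haploid human cell line derived from the chronic myelogenous leukaemia line KBM-7, and Baz2B-KO is 1 commercial line of it in which CRISPR/Cas9 removed a short stretch of a coding exon of BAZ2B. Both lines were kept untreated in the same serum-supplemented medium and trypsinized before RNA extraction. With 1 edited and 1 parental line, the loss of Baz2B and other differences between the lines cannot be told apart. Whether replicate arrays stem from separate cultures is not in the labels, and the p-values below then reflect only how far these arrays scatter, possibly for technical reasons.

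Remodelling complexes use a SNF2-type ATPase to slide, eject or exchange nucleosomes, and their non-catalytic subunits direct the motor to its targets. The ISWI ATPases SMARCA5 (Snf2H) and SMARCA1 (Snf2L) pair with large subunits of the BAZ family, among them BAZ2B, which carries a TAM domain, AT-hooks, a PHD finger and a bromodomain. Bromodomains are folds that bind acetylated lysine, found in histone tails among other proteins, and occur also in SWI/SNF subunits, BET proteins and acetyltransferases. Many of these proteins have close paralogues that can take each other's place in a complex. The question put to the arrays was whether transcripts of such relatives differ in the line that lacks Baz2B.

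None of the 32 tested members passed the test. Their log2 fold changes, Baz2B-KO minus Hap1 control, lay between -0.16 (CHD7) and 0.64 (CHRAC1). At a Benjamini-Hochberg adjusted p under 0.05 from limma, 0 of 32 members were called. Beside them, 75 of all 11235 tested probe sets, or 0.668%, were called (0.276% higher and 0.392% lower in Baz2B-KO). The smallest called log2 fold change was 0.70 in size. At an unadjusted p under 0.05, 2 members stood out, CHRAC1 and CREBBP, which is 6.25% of the members beside 9.85% of all probe sets. The count of called members was 0 under each of 13 alternative settings as well. Settings that left 1 array in a line called fewer of the tested probe sets or none, so their count of members says little. Settings that kept all 4 arrays called 26 to 102 of the probe sets they tested. In these, the lowest adjusted p of any member ranged from 0.106 to 0.419 in limma. In RNA of whole cultures, fewer expressing cells and less RNA per cell cannot be told apart. Values are log2 intensities after RMA, which compresses small differences near the background, and a probe set was tested when it exceeded 3.5 on at least 2 arrays. All 32 members with a platform name met that condition, with levels between 5.13 and 9.53. Levels of different genes are not compared, since each probe set has its own response.

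**Figure D1:**
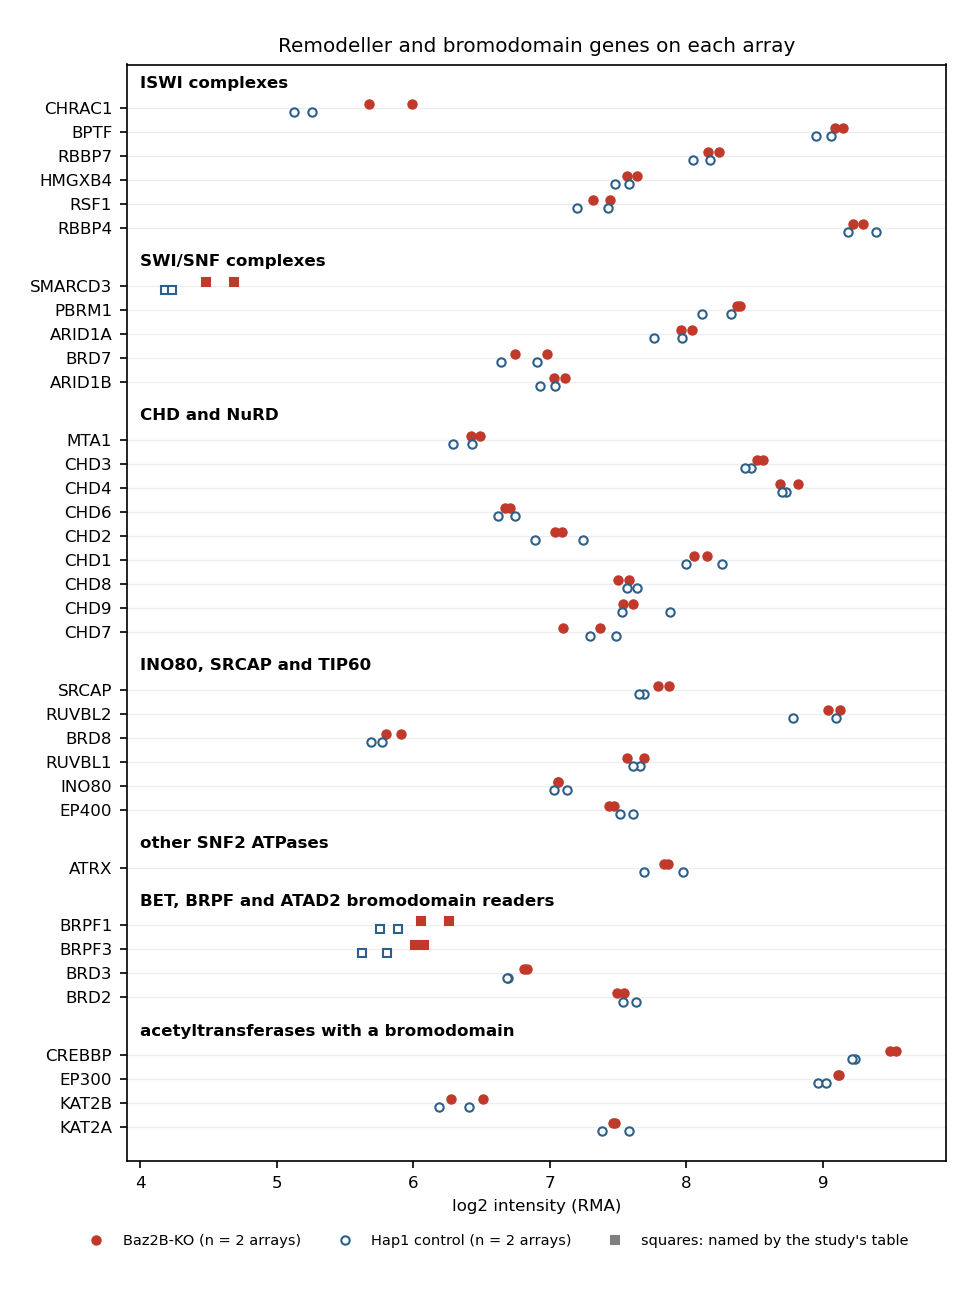
Log2 intensity (x axis) of the 35 members with a named probe set (rows, grouped by complex or domain) on each array, with Baz2B-KO arrays filled and above the open Hap1 control arrays of the same gene. Squares mark the 3 genes named only by the study's own list. The values of both lines lie close together for nearly every gene, and the widest separation is that of CHRAC1.

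The knocked-out gene and its nearest relatives could not be followed. BAZ2B, BAZ2A, BAZ1A, BAZ1B, both ISWI ATPases SMARCA1 and SMARCA5, CECR2 and POLE3 have no named probe set in either table, which is 8 of the 14 listed ISWI genes. A check of the knockout on the arrays was therefore not possible here. The same holds for 10 of 15 SWI/SNF genes, namely both ATPases SMARCA2 and SMARCA4, the core subunits SMARCB1, SMARCC1, SMARCC2, SMARCD1, SMARCD2 and SMARCE1, ARID2 and BRD9. It holds further for MTA2, MTA3, HELLS, BRD1, ATAD2 and ATAD2B, which brings the number of members not analysed here to 24.

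Among the ISWI subunits that were measured, CHRAC1 differed most. CHRAC1 encodes a histone-fold protein that pairs with POLE3 in the CHRAC complex, where both join SMARCA5 and BAZ1A. Its log2 intensity was 5.68 and 5.99 on the Baz2B-KO arrays, against 5.13 and 5.26 on the Hap1 control arrays. Both Baz2B-KO arrays were above both controls, and they lay 0.31 apart, the widest gap between the Baz2B-KO arrays of any member. The means were 5.83 ± 0.22 in Baz2B-KO and 5.19 ± 0.093 in the Hap1 control (SD, n = 2 each), a log2 fold change of 0.64 (standard error 0.138, 95% interval 0.32 to 0.96, adjusted p = 0.150 from limma), or 1.56-fold. Without Baz2B-KO replicate 2 the log2 fold change of CHRAC1 was 0.48, and without replicate 1 it was 0.80. Neither reached the threshold, and the range of its adjusted p over the 13 alternatives was the 0.106 to 0.612 given above.

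The other ISWI subunits lay within 0.12 of no change on the log2 scale. BPTF, the large subunit of NURF that carries a PHD finger and a bromodomain as BAZ2B does, had 9.09 and 9.15 in Baz2B-KO, against 9.06 and 8.95 in the Hap1 control. The groups of BPTF did not overlap, but the lower Baz2B-KO array and the higher control lay close together, and the log2 fold change was 0.12 (95% interval -0.14 to 0.38, adjusted p = 0.839 from limma). RSF1, the histone-binding partner of SMARCA5 in the RSF complex, had 7.44 and 7.32 in Baz2B-KO, against 7.42 and 7.20 in the Hap1 control. The groups of RSF1 overlapped.
RBBP4 and RBBP7 are paralogous histone chaperones shared by NURF, NuRD and other complexes. RBBP4 had 9.30 and 9.22 in Baz2B-KO, against 9.39 and 9.18 in the Hap1 control. RBBP7 had 8.24 and 8.16 in Baz2B-KO, against 8.17 and 8.05 in the Hap1 control. In both genes the groups overlapped, with log2 fold changes of -0.029 for RBBP4 and 0.087 for RBBP7. HMGXB4, an HMG-box protein, had 7.64 and 7.56 in Baz2B-KO, against 7.58 and 7.48 in the Hap1 control, and its groups overlapped as well.

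SWI/SNF complexes, also called BAF and PBAF, remodel nucleosomes at enhancers and promoters. Of their 4 tested members, 0 were called and all had a positive log2 fold change, between 0.087 (ARID1B) and 0.16 (PBRM1). PBRM1, the PBAF subunit with several bromodomains, had 8.37 and 8.39 in Baz2B-KO, against 8.32 and 8.12 in the Hap1 control. Its groups did not overlap, but the 2 controls of PBRM1 differed more from each other than the lines did in their means (adjusted p = 0.769 from limma). ARID1A, the DNA-binding subunit of canonical BAF, had 7.96 and 8.04 in Baz2B-KO, against 7.97 and 7.76 in the Hap1 control. Its paralogue ARID1B had 7.11 and 7.03 in Baz2B-KO, against 7.04 and 6.93 in the Hap1 control. Both pairs of groups overlapped, as did those of BRD7, the PBAF bromodomain subunit, with 6.98 and 6.74 in Baz2B-KO, against 6.90 and 6.64 in the Hap1 control.

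**Figure D2:**
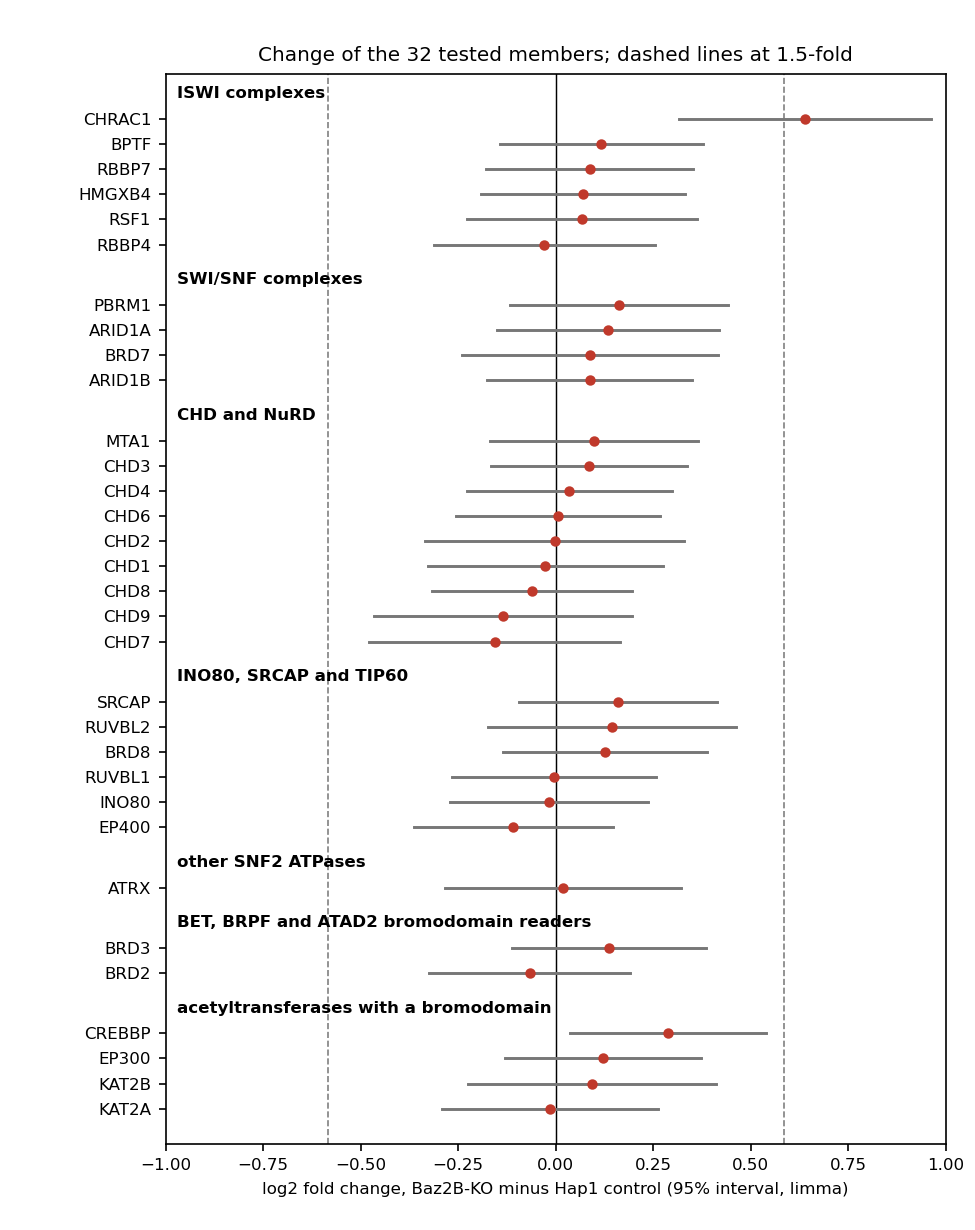
Log2 fold change, Baz2B-KO minus Hap1 control (x axis), of the 32 tested members with its 95% interval from limma (bars); dashed lines mark a change of 1.5-fold in either direction. The intervals of 31 members lie between the dashed lines, and that of CHRAC1 does not.

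The CHD ATPases form a separate family with chromodomains, and CHD3 and CHD4 are the motors of NuRD, which joins remodelling to histone deacetylation. All 8 listed CHD genes were tested and 0 were called, with a median log2 fold change of -0.015. CHD7, which binds enhancers and is the gene mutated in CHARGE syndrome, had 7.37 and 7.10 in Baz2B-KO, against 7.48 and 7.29 in the Hap1 control, a log2 fold change of -0.16 (95% interval -0.48 to 0.16, adjusted p = 0.820 from limma). CHD9 had 7.53 and 7.61 in Baz2B-KO, against 7.88 and 7.53 in the Hap1 control, so that its log2 fold change of -0.13 was smaller than the gap of 0.35 between its controls. CHD8, a chromodomain ATPase linked to autism, had 7.50 and 7.58 in Baz2B-KO, against 7.64 and 7.57 in the Hap1 control. The arrays of the lines overlapped in all 3 genes.
CHD1, which binds methylated H3K4 through its chromodomains, had 8.15 and 8.05 in Baz2B-KO, against 8.26 and 7.998 in the Hap1 control. CHD2 had 7.09 and 7.04 in Baz2B-KO, against 7.24 and 6.89 in the Hap1 control, and CHD6 had 6.71 and 6.67 in Baz2B-KO, against 6.75 and 6.62 in the Hap1 control. In CHD1, CHD2 and CHD6 both Baz2B-KO values lay between the 2 controls, and the sign of CHD2 (log2 fold change -0.0032) turned when each array was centred on its median (0.0070). Of the NuRD genes, CHD4 had 8.82 and 8.68 in Baz2B-KO, against 8.73 and 8.70 in the Hap1 control. CHD3 had 8.56 and 8.52 in Baz2B-KO, against 8.47 and 8.43 in the Hap1 control, without overlap and at a log2 fold change of 0.086. MTA1, a scaffold of NuRD, had 6.42 and 6.49 in Baz2B-KO, against 6.29 and 6.43 in the Hap1 control, with overlap.

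INO80, SRCAP and EP400 are split-ATPase remodellers that handle the histone variant H2A.Z, and RUVBL1 and RUVBL2 are the AAA+ helicases that all of them share. Of the 6 genes in this class, 0 were called, and 3 had a positive and 3 a negative log2 fold change. SRCAP had 7.87 and 7.79 in Baz2B-KO, against 7.69 and 7.65 in the Hap1 control, a log2 fold change of 0.16 without overlap (95% interval -0.095 to 0.41, adjusted p = 0.738 from limma). EP400, the ATPase of the TIP60 complex, had 7.43 and 7.47 in Baz2B-KO, against 7.61 and 7.51 in the Hap1 control. It was the only member of the 32 in which both Baz2B-KO arrays lay below both controls, at a log2 fold change of -0.11. A dimmer probe set carrying the same gene name was above 3.5 on 0 arrays and was not tested. BRD8, the bromodomain subunit of TIP60, had 5.91 and 5.80 in Baz2B-KO, against 5.77 and 5.69 in the Hap1 control, again without overlap.
INO80 itself had 7.06 on both Baz2B-KO arrays, against 7.12 and 7.03 in the Hap1 control. RUVBL1 had 7.69 and 7.57 in Baz2B-KO, against 7.66 and 7.61 in the Hap1 control, and its log2 fold change of -0.0054 became 0.0048 with each array centred on its median. RUVBL2 had 9.04 and 9.12 in Baz2B-KO, against 8.78 and 9.09 in the Hap1 control, with only the first control low. Its log2 fold change was 0.14, and without that control -0.013. ATRX, the ATPase that deposits H3.3 at telomeres and repeats with DAXX, had 7.84 and 7.86 in Baz2B-KO, against 7.97 and 7.69 in the Hap1 control, with both Baz2B-KO values inside the control range.

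CREBBP was the second member with an unadjusted p under 0.05. CREBBP and its paralogue EP300 are acetyltransferases with a bromodomain that act as coactivators at enhancers. CREBBP had 9.49 and 9.53 in Baz2B-KO, against 9.24 and 9.21 in the Hap1 control, with arrays of 1 line within 0.041 of each other. The means were 9.51 ± 0.029 in Baz2B-KO and 9.22 ± 0.019 in the Hap1 control (SD, n = 2 each), a log2 fold change of 0.29 (standard error 0.107, 95% interval 0.038 to 0.54, adjusted p = 0.443 from limma), or 1.22-fold. EP300 had 9.12 and 9.11 in Baz2B-KO, against 8.96 and 9.02 in the Hap1 control. The groups of EP300 did not overlap either, at a log2 fold change of 0.12 (95% interval -0.13 to 0.37, adjusted p = 0.822 from limma), and whether the paralogues differ in their change was not tested.
KAT2A and KAT2B, the acetyltransferases of SAGA and ATAC, overlapped between the lines. KAT2A had 7.48 and 7.46 in Baz2B-KO, against 7.38 and 7.58 in the Hap1 control. KAT2B had 6.51 and 6.27 in Baz2B-KO, against 6.41 and 6.19 in the Hap1 control.
BRD2 and BRD3 are BET proteins, which bind acetylated histones and recruit the transcription machinery. BRD3 had 6.81 and 6.83 in Baz2B-KO, against 6.69 and 6.68 in the Hap1 control, 4 tightly spaced values without overlap at a log2 fold change of 0.14 (adjusted p = 0.792 from limma). BRD2 had 7.54 and 7.49 in Baz2B-KO, against 7.63 and 7.54 in the Hap1 control, with overlap and a log2 fold change of -0.067.

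SMARCD3, BRPF1 and BRPF3 carry a name only because they lie among the 1999 rows of lowest p of that list which were available. They were thus selected for a low p on these arrays, and their values are a description that enters no count or median here. SMARCD3, a SWI/SNF subunit known for its role in the heart, had 4.48 and 4.69 in Baz2B-KO, against 4.18 and 4.23 in the Hap1 control, which is 1.30-fold. BRPF1, the scaffold of the KAT6A and KAT6B acetyltransferase complexes, had 6.26 and 6.06 in Baz2B-KO, against 5.76 and 5.88 in the Hap1 control, or 1.26-fold. Its paralogue BRPF3, a scaffold of KAT7, had 6.07 and 6.01 in Baz2B-KO, against 5.63 and 5.81 in the Hap1 control, or 1.25-fold. In all 3 genes both Baz2B-KO arrays were above both controls, and none was called when added to the tested probe sets, with SMARCD3 lowest at an adjusted p of 0.347 from limma.

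**Figure D3:**
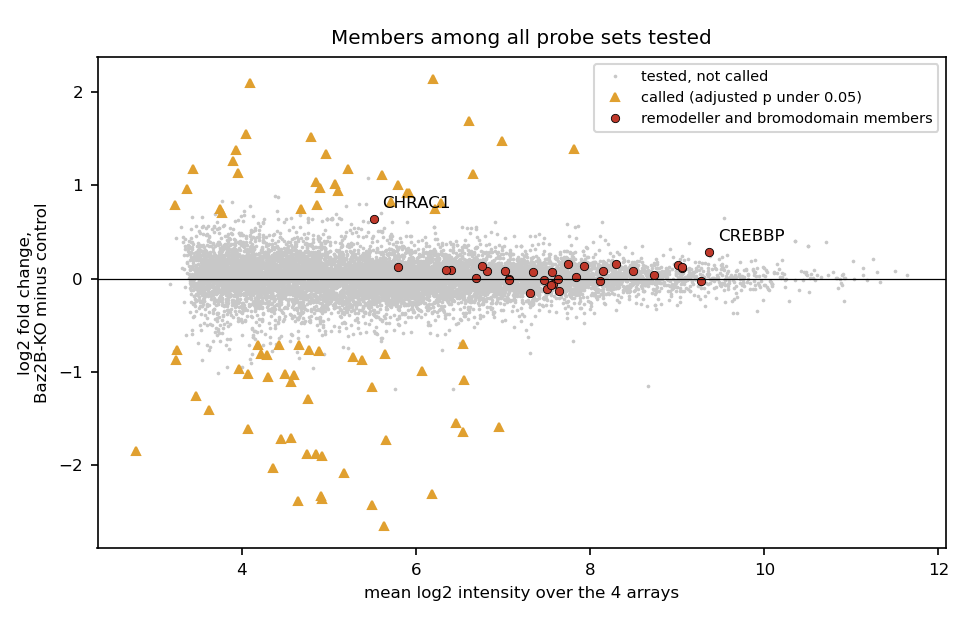
Log2 fold change, Baz2B-KO minus Hap1 control (y axis), against the mean log2 intensity over the 4 arrays (x axis) for 11235 tested probe sets (grey), the 75 called ones (triangles) and the 32 tested members (circles). The members lie near 0, between -0.16 and 0.64, and none of them is among the called probe sets.

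The arrays set bounds on what may have been missed. The 95% interval of the difference lay inside a change of 1.5-fold in either direction for 31 of the 32 members, or 96.9%, beside 85.2% of all tested probe sets. The exception was CHRAC1, whose interval ran from 1.24-fold to 1.95-fold higher. All 32 intervals lay inside 2-fold. Standard errors of the members ranged from 0.106 to 0.142. Mean log2 intensity had a median of 7.57 over the members and 5.70 over all tested probe sets. The shares of 96.9% and 85.2% thus compare probe sets of unlike brightness, and the part of brightness in them was not tested. These intervals are per gene and are not adjusted for the number of genes. They rest on a spread that limma estimated from 2 arrays a line and shared over probe sets. They reflect how far these arrays scatter, possibly for technical reasons, and may not bound the difference between separate cultures of the lines. They also take the differences after RMA as they are.

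As a set, the members had a median log2 fold change of 0.078 (quartiles -0.016 and 0.12), beside 0.017 (quartiles -0.087 and 0.12) over all tested probe sets, and 21 of 32 were positive, or 65.6% beside 54.8%. Both Baz2B-KO arrays were above both controls for 9 members, or 28.1% beside a background of 21.9%, and below both for 1 member, or 3.12% beside 15.9%. The groups overlapped in the other 22 of 32 members, or 68.8%, beside 6988 of 11235 tested probe sets. Of all tested probe sets, 37.8% did not overlap in either direction. These 9 were CHRAC1, BPTF, PBRM1, CHD3, SRCAP, BRD8, BRD3, CREBBP and EP300. In 22 of 32 members, or 68.8% beside 60.2% of all probe sets, the lines differed by less than the 2 controls differed from each other.
The size of this shift depended on single arrays of both lines. Control replicate 1 was above control replicate 2 in 27 of 32 members, or 84.4%, beside 47.8% of all tested probe sets. Both Baz2B-KO arrays exceeded control replicate 2 in 23 members, or 71.9% beside 37.3%, but exceeded control replicate 1 in 12, or 37.5% beside 42.2%. Without control replicate 2 the median of the members was 0.019, beside 0.025 for all probe sets, and without control replicate 1 it was 0.11, beside 0.011. It was 0.018, beside 0.0054, without Baz2B-KO replicate 1 and 0.098, beside 0.029, without Baz2B-KO replicate 2. Over the members, the median absolute difference was 0.077 between the Baz2B-KO arrays, 0.127 between the controls and 0.093 to 0.133 for pairs across the lines.

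**Figure D4:**
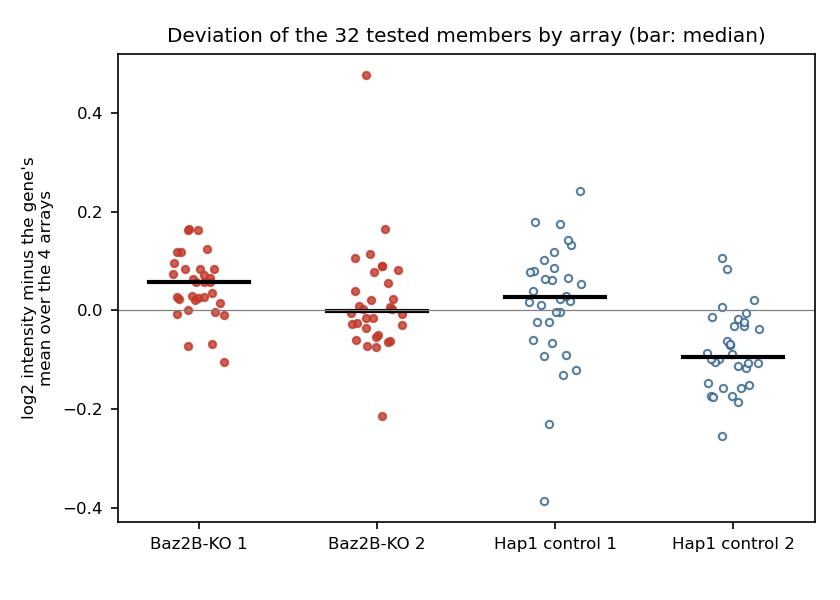
Deviation of each of the 32 tested members from its own mean over the 4 arrays, in log2 intensity (y axis), on each array (x axis), with the median as a bar. The medians are 0.057 and -0.00098 on the Baz2B-KO arrays, and 0.026 and -0.094 on the Hap1 control arrays, where control replicate 2 is lowest.

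Further subunits and domain relatives, 109 genes in 7 lists, gave the same count. Of them, 73 were tested and 0 were called, beside 0.668% of all probe sets, and 4 had an unadjusted p under 0.05 in limma, or 5.48% beside 9.85%. Their median log2 fold change was 0.054. Both Baz2B-KO arrays were above both controls for 25 of the 73, or 34.2% beside 21.9%, and below both for 7, or 9.59% beside 15.9%. EPC2, a scaffold of the TIP60 acetyltransferase complex, had the lowest adjusted p, with 6.83 and 6.90 in Baz2B-KO, against 6.40 and 6.35 in the Hap1 control (log2 fold change 0.49, adjusted p = 0.164 from limma). Its paralogue EPC1 had 5.64 and 5.66 in Baz2B-KO, against 5.21 and 5.39 in the Hap1 control. The NuRD subunit gene MBD2, which encodes a reader of methylated DNA, had 7.73 and 7.57 in Baz2B-KO, against 7.33 and 7.21 in the Hap1 control, and RAD54B, a recombination ATPase of the SNF2 family, had 6.998 and 6.93 in Baz2B-KO, against 7.28 and 7.23 in the Hap1 control. In all 4 genes the groups did not overlap. They were named after their values were seen, as the 4 with an unadjusted p under 0.05.
By list, the median log2 fold change was -0.065 for 8 of 19 further bromodomain genes, 0.074 for 10 of 15 SWI/SNF subunits and 0.091 for 7 of 8 NuRD subunits. It was 0.024 for 23 of 25 subunits of INO80, SRCAP and TIP60, and -0.090 for 5 of 13 SNF2 ATPases. For 16 of 22 partners of the BRPF and KAT2 proteins it was 0.063, and for 4 of 7 genes with an MBD or TAM domain, the DNA-binding fold of BAZ2B, it was 0.046, with MBD2 (log2 fold change 0.38) counted among the NuRD subunits and not here. The number called was 0 in each of the 7 lists.

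The markers of the cell type were only partly measured. Of 13 blood cell markers 4 are named, of which GATA1 (4.64 to 4.78) and SPI1 (4.21 to 4.59) were retained and CD34 and MPO were not. Of 7 fibroblast markers 3 are named. THY1 was the 1 retained, while DCN and LUM were at most 1.55 and 1.90. Of 7 epithelial markers 6 are named, and CLDN4 (at most 2.875) was not retained. The 5 retained were KRT18 (7.59 to 7.88), EPCAM (5.115 to 5.218), KRT8 (4.878 to 5.531), ESRP1 (4.422 to 5.147) and KRT19 (3.704 to 4.312). None of these passed the test, and ESRP1 came closest (log2 fold change 0.64, adjusted p = 0.0734 from limma).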

How the data were processed

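The deposited table holds log2 intensities, which the authors made with the oligo package and RMA (the sources used here do not give versions), for 53617 probe sets on 4 arrays. Following the study's filter, 27722 probe sets with values above 3.5 on 2 or more arrays were kept. The platform annotation names 1 gene for 16098 probe sets and several for 0, and 11235 met both conditions. limma 3.58.1 in R 4.3.3 (lmFit, eBayes) tested Baz2B-KO minus Hap1 control without covariates, with Benjamini-Hochberg adjustment over these 11235. A gene was given by its probe set of highest mean. Of the study's supplementary list, which also holds fold changes and p-values of the authors' comparison, only gene names were used. Each gene named only there received the variance prior of this fit and an adjusted p as if it were a further tested probe set. Array values were to be given for every measured ISWI subunit, the 10 members of largest change, paralogues of these and any called gene. All measured members are shown. The members, lists and tests were chosen with earlier results of these data known. The fit was tested on simulated data. Alternatives were other filters, tables, priors and scalings, a replicate block, each array left out and the mean of the probe sets. Figures were drawn with matplotlib 3.10.9. Protein sequences were not analysed here. An array has no read depth, so the number of arrays limits the precision. With 2 arrays a line, the smallest two-sided p of an exact permutation test is 0.333.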

Additional observations from a re-analysis of the deposited data

How the results depend on the processing

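The count of called members was 0 under all 13 alternatives, with 1 or 2 members at an unadjusted p under 0.05 in limma, and that of the 109 further genes was 0 as well. Of the 32 members, 18 kept their direction throughout, among them CHRAC1, CREBBP, BPTF, CHD7 and EP400. Leaving out 1 array turned the others, whose log2 fold changes then ran from -0.045 to 0.18 for RSF1, -0.13 to 0.074 for RBBP4, -0.042 to 0.22 for BRD7, -0.16 to 0.10 for CHD1, -0.18 to 0.17 for CHD2, -0.033 to 0.10 for CHD4, -0.057 to 0.071 for CHD6, -0.31 to 0.039 for CHD9, -0.063 to 0.029 for INO80, -0.066 to 0.055 for RUVBL1, -0.013 to 0.30 for RUVBL2, -0.12 to 0.16 for ATRX, -0.11 to 0.084 for KAT2A and -0.024 to 0.21 for KAT2B. With each array centred on its median, CHD2 was at 0.0070 and RUVBL1 at 0.0048, and with quantile normalization CHD2 was at 0.0031. The cause was not tested. The 75 probe sets called over the whole array became 41 without an intensity filter, 26 with all retained probe sets, 102 with each array centred on its median, 80 with a robust prior, 79 with quantile normalization, 78 with an intensity trend, 71 with the probe sets of each gene averaged, 69 with a limit of 4.5, and between 0 and 42 with 1 array left out. The count was 0 without Hap1 control replicate 1 (935 at an unadjusted p under 0.05 in limma) and 0 without Hap1 control replicate 2 (1419 at an unadjusted p under 0.05 in limma). With the replicate block it was 38, and this block changed no call of a member. Same-numbered arrays deviated together only weakly over the tested probe sets (r = 0.158) and more over the members (r = 0.402), across genes, which are not independent. With 2 numbers a line the numbers were not taken to pair the arrays.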

Other observations

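The genes around CHRAC1 had log2 fold changes between -0.38 and 0.43, smaller in size than that of CHRAC1 (0.64). The tested genes next to it on either side were TRAPPC9 (log2 fold change 0.42) and PTK2 (-0.052). Of the 20 nearest tested genes on chromosome 8 in the RefSeq order of GRCh38.p14, 11 had a positive log2 fold change (54.8% of all tested probe sets did), the median was 0.057 and 0 were called (3 at an unadjusted p under 0.05 in limma, which 9.85% of all tested probe sets had), with a median of 0.010 over 364 tested genes of that chromosome. Around CREBBP on chromosome 16, the log2 fold changes of the 20 nearest tested genes ran from -0.71 to 0.29, where the lowest is larger in size than that of CREBBP (0.29), and 16 of them were positive. Their median was 0.070, beside 0.054 over 517 tested genes of that chromosome, and 0 were called (2 at an unadjusted p under 0.05 in limma). Both neighbourhoods were looked up after the values of these members had been seen.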
